A study of Homo sapiens with 16 samples.

Results

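Messenger RNA of 50 genes of DNA replication and replication stress was followed in NCI-H1944, an established line from a human lung adenocarcinoma. The genes were taken by name from a table of 60612 genes, and all 50 were among the 17950 genes with enough counts to test. They cover the licensing of origins, the activation of the helicase, the polymerases, the sliding clamp, single-stranded DNA binding, the joining of Okazaki fragments, the supply of nucleotides, fork protection and chromatin assembly. Cells with 4 genotype labels were compared, with 2 libraries in each of 8 groups and 16 libraries in all. STING-labelled cells carried a guide against STING, and MAVS-labelled cells a guide against MAVS. DKO-labelled cells were a double knockout of STING and MAVS, and SCR cells were the control that the labels call wild type. Each was sampled after MPS1i and after DMSO. MPS1i is BAY-1217389, which inhibits MPS1 (gene TTK), a kinase of the mitotic spindle checkpoint. The dose was 100 nM over 48 h, and a washout of 24 h came before RNA was taken. Whether a line was 1 clone or a pool, and whether the replicates were separate cultures, is not given in the sources used here, so the p-values reflect the variation among libraries, which may be technical. The design asks whether the response to the pulse differs where STING, MAVS or the pair is targeted.

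Before S phase, the origin recognition complex, CDC6 and CDT1 load the MCM2-7 helicase onto DNA. In S phase, the kinase CDC7-DBF4 and the factors CDC45, GINS and MCM10 turn it on, and polymerases then copy both strands around the clamp PCNA. Many of these genes are transcribed by E2F factors late in G1, so their RNA is known to track the cell cycle, and proteins such as claspin and CHK1 guard forks that stall. In bulk RNA, fewer cells in S phase and less RNA per cell cannot be told apart.

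Total counts ran from 19893784 to 49769938 per library, and a member had between 113 and 11734 counts in a library. RNA of STING1, which encodes STING, stood at 4.89 and 4.83 CPM (counts scaled to the library's normalised size) in DKO-labelled and 3.78 and 3.70 CPM in STING-labelled DMSO libraries, against 8.25 and 8.30 CPM in SCR. MAVS RNA was not lower in the lines labelled for it, at 222 and 208 CPM in DKO-labelled and 195 and 196 CPM in MAVS-labelled cells, against 189 and 183 CPM in SCR under DMSO. The transcript level therefore does not check the MAVS label, and lines are named by their labels throughout. Keratins KRT7, KRT8 and KRT18 were detected in every library, while KRT19 was at 0 in 11 of 16 libraries with at most 4 counts, and the lung markers NKX2-1 and SFTPB had at most 3 counts in any library. Of 7 immune markers, NKG7 was at 0 in all 16 libraries, and the list summed to between 0.804 and 1.81 CPM after MPS1i and between 0.208 and 0.855 CPM under DMSO. Of 7 stromal and endothelial markers 3 were tested, and the list summed to between 23.4 and 36.0 CPM after MPS1i and between 14.8 and 28.5 CPM under DMSO, and the part of either list in the results was not tested. DKO-labelled DMSO replicates differed more than other replicate pairs, with a chi-square per gene of 9.43 against 2.8 to 6.07 in the other groups.

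The members differed widely in level. Mean levels over the 16 libraries ran from 6.79 CPM (GINS2) to 249.8 CPM (MCM4), with a median of 34.3 CPM against 11.1 CPM over all tested genes. For a comparison between genes, CPM were divided by the length of annotated exons in kilobases. That length joins the exons of all annotated transcripts of a gene, such as 7338 bases for MCM5 and 1471 for PCNA. It can exceed the length of the RNA present, so the order of genes depends on the annotation. On that scale the clamp PCNA led in SCR cells under DMSO at 100.1 CPM per kilobase, and thymidylate synthase TYMS was next at 43.4. The helicase subunit MCM4, the large reductase subunit RRM1 and the helicase subunit MCM3 followed at 33.4, 32.6 and 30.9, and MCM4 and RRM1 did not differ beyond their SD. The lowest were GINS4 at 2.24, GINS2 at 1.82, GINS3 at 1.68 and the polymerase alpha subunit POLA2 at 1.37 CPM per kilobase. Subunits of 1 complex were not level on this scale: MCM5 stood at 7.02 and MCM4 at 33.4, and GINS1 at 9.21 was above the other GINS subunits.

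**Figure D1:**
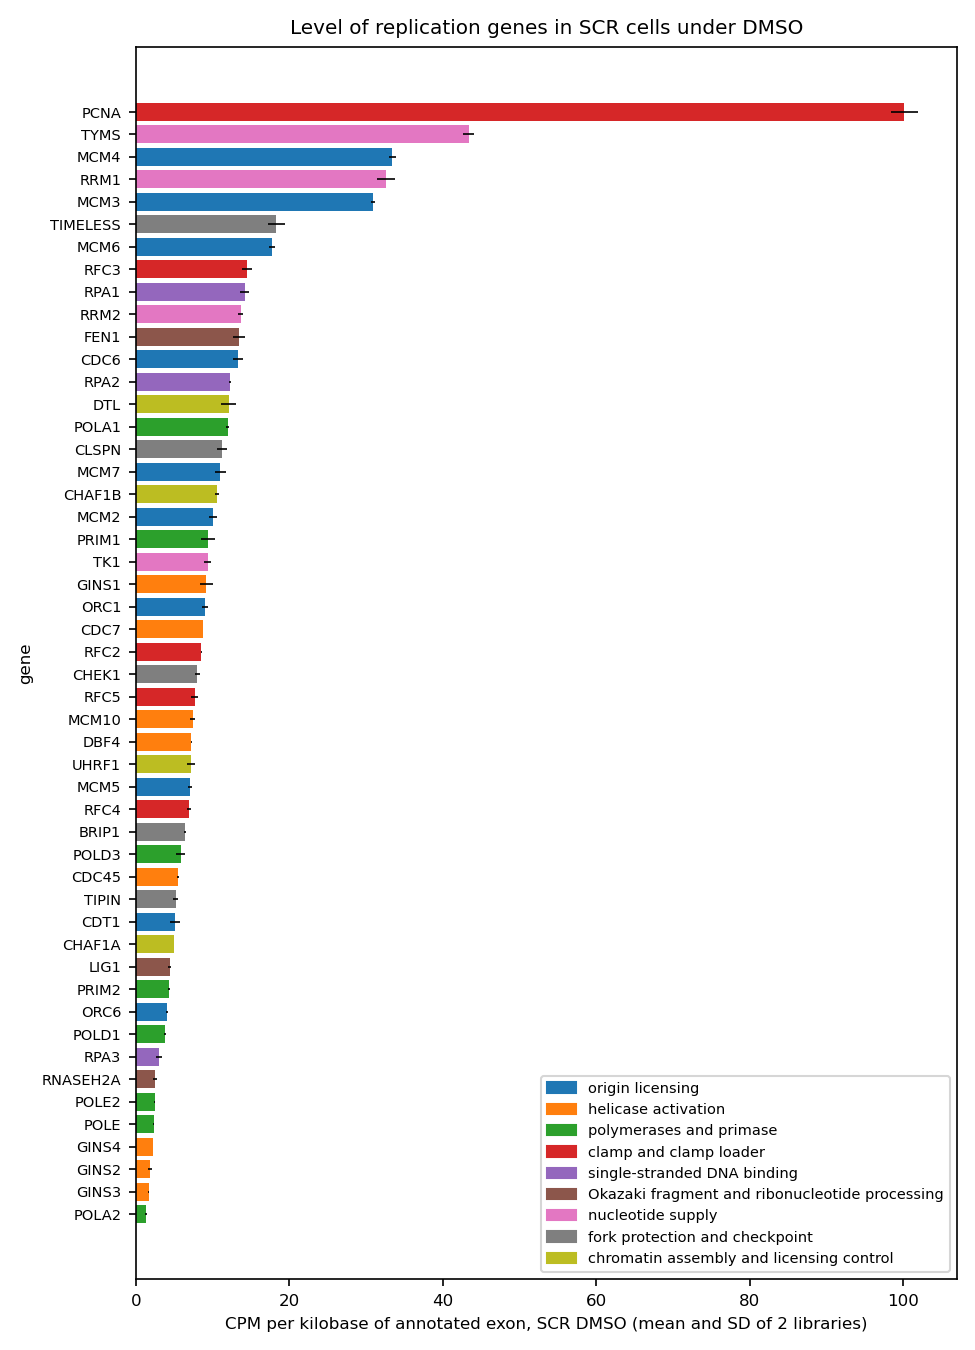
Level of each of the 50 genes in SCR cells under DMSO, in CPM per kilobase of annotated exon (bars, mean of 2 libraries; lines, SD; colours, role). PCNA stands at 100.1 and POLA2, the lowest, at 1.37.

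After the MPS1i pulse the replication genes moved by small amounts, and for part of them the direction depended on the genotype label. Of the 50, 15 rose in SCR and fell in DKO-labelled cells, against 0.774% of all tested genes. In both of these lines 13 fell, against 5.71% of all tested genes. A further 15 were not called in SCR and fell in DKO-labelled cells, against 1.73%. In DKO-labelled cells 43 of the 50 fell, among them all 6 MCM2-7 subunits and all 4 GINS subunits, with a median log2 fold change of -0.41. Across all tested genes 8.22% fell and 6.53% rose in that comparison. No member rose there by edgeR's quasi-likelihood test or by DESeq2, and none was higher at an unadjusted p under 0.05 (0 of 50). In SCR cells 20 members rose and 13 fell, with a median of 0.08, against 26.0% and 24.0% of all tested genes. STING-labelled cells had 17 members lower and 1 higher after MPS1i, with a median of -0.17, where 13.9% and 15.5% of all genes were lower and higher. MAVS-labelled cells had 16 lower and 4 higher, with a median of -0.08, where 16.3% and 17.1% of all genes were lower and higher. The MAVS count was 12 in place of 20 without MPS1i replicate 1 of that line, and 2 in place of 4 were higher without its DMSO replicate 1 or MPS1i replicate 1. The medians over all tested genes lay between 0.00 and 0.03 in these comparisons. No member passed a 2-fold change in cells of any label, while 14.1% of all tested genes did with a call in at least 1 line. Averaged over the 4 labels, 29 members fell and 4 rose, against 26.7% and 29.4% of all tested genes.

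**Figure D2:**
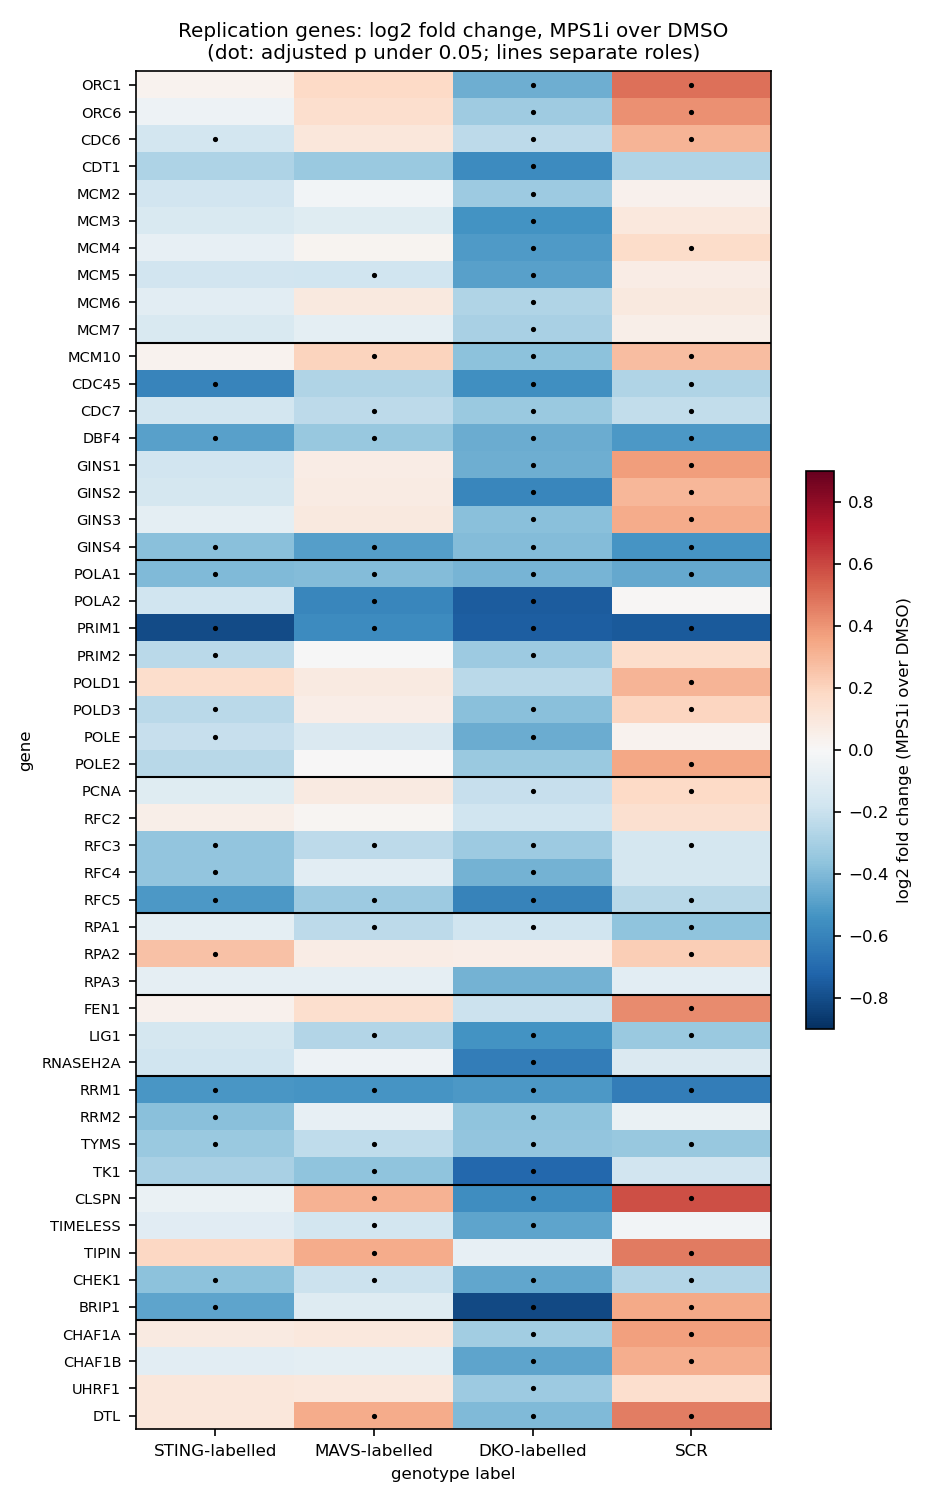
Log2 fold change of each gene after MPS1i over DMSO in cells of the 4 genotype labels (colour; blue lower, red higher; dots, adjusted p under 0.05; horizontal lines separate roles). The DKO-labelled column is blue for 49 of 50 genes, and the SCR column is red for 30.

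The members fell into recurring patterns over the 4 labels. A group of 15 rose in SCR cells and fell in DKO-labelled cells: ORC1, ORC6, CDC6, MCM4, MCM10, GINS1, GINS2, GINS3, POLD3, PCNA, CLSPN, BRIP1, CHAF1A, CHAF1B and DTL. That is 30.0% of the members, and 0.774% of all tested genes had the same pattern of calls. In the lines not used to form this group, CDC6, POLD3 and BRIP1 fell in STING-labelled cells, and MCM10, CLSPN and DTL rose in MAVS-labelled cells. These are 3 of 15 in each line, near the 13.9% of all tested genes lower in STING-labelled and 17.1% higher in MAVS-labelled cells. The MCM10 call did not hold in every alternative. The median of the 15 was -0.09 for STING-labelled cells and 0.09 for MAVS-labelled cells. Another group of 9 fell after MPS1i in cells of every label, against 4.51% of all tested genes: DBF4, GINS4, POLA1, PRIM1, RFC3, RFC5, RRM1, TYMS and CHEK1. A further 7 passed the test in DKO-labelled cells only, all lower, against 0.908% of all genes: CDT1, MCM2, MCM3, MCM6, MCM7, RNASEH2A and UHRF1. Their treatment effect was lower in DKO-labelled than in SCR cells for 5 of these 7, and the difference for CDT1 and RNASEH2A did not pass the test. The 7 were chosen by their calls in these same lines, so this count is no separate evidence. The clamp loader subunit RFC2 and the smallest RPA subunit RPA3 passed the test in no line, 2 of 50 members against 39.7% of all tested genes. The treatment effect was highest in SCR and lowest in DKO-labelled cells for 32 of 50 members, against 19.0% of all tested genes.

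Promoters of members of these patterns are shown as a description. The patterns were formed from the calls, so the like movement of their genes follows from the choice. The 250 bases before RefSeq's transcription start (GRCh38.p14) were found for 44 of the 50 members. They were searched on both strands for the E2F words TTTCCCGC, TTTCGCGC, TTTGCCGC and TTTGGCGC, for CCAAT, and for the CHR words TTTGAA and TTCGAA, and words that overlap were counted separately. An E2F word was in 14 of 44 members (31.8%), against 2.79% of 35116 promoters of the same length. Those promoters were not limited to tested genes, whereas all members were tested, so the shares do not compare expressed genes alone. CCAAT was in 27 of 44 (61.4%), against 32.0%, and a CHR word in 3 of 44 (6.82%), against 14.3%. E2F words were in 3 of the 13 matched genes that rose in SCR and fell in DKO-labelled cells, and in 3 of the 8 matched genes that fell under every label. CCAAT was in 11 of those 13 and in 5 of those 8. In the sequences, read 5′ to 3′ on the gene's strand, capitals mark E2F words and CCAAT on either strand. CLSPN (ENSG00000092853, chr1:35769979-35770228, minus strand), BRIP1 (ENSG00000136492, chr17:61863529-61863778, minus strand) and DTL (ENSG00000143476, chr1:212035498-212035747, plus strand) were 3 of the 4 genes of the first pattern with the smallest adjusted p for the difference between DKO-labelled and SCR cells:
CLSPN: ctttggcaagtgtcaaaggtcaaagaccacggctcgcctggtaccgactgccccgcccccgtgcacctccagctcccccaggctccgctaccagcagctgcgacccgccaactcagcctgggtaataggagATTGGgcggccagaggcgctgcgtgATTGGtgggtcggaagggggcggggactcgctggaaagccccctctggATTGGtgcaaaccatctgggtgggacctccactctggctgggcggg
BRIP1: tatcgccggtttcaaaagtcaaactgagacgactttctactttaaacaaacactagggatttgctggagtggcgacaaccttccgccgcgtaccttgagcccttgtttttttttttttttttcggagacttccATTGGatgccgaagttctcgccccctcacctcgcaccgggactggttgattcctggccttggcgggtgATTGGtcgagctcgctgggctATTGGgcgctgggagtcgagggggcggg
DTL: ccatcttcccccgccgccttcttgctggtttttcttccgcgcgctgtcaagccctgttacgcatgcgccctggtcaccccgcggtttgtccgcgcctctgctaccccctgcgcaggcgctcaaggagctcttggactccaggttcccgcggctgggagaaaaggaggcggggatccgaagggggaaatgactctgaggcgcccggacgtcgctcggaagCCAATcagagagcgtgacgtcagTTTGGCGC
RRM1 (ENSG00000167325, chr11:4094435-4094684, plus strand), POLA1 (ENSG00000101868, chrX:24693668-24693917, plus strand) and PRIM1 (ENSG00000198056, chr12:56752324-56752573, minus strand) had the smallest adjusted p for the mean treatment effect among genes that fell under every label:
RRM1: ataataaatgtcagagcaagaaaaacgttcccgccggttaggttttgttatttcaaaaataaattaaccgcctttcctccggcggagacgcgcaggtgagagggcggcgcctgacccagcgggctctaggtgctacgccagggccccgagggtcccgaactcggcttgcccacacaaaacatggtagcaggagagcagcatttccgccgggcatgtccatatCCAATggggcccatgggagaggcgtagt
POLA1: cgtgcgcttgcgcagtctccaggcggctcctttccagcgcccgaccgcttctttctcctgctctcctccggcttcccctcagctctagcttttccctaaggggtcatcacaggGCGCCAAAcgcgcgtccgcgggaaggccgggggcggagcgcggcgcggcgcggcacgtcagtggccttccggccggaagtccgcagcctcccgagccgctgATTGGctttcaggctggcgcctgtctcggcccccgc
PRIM1: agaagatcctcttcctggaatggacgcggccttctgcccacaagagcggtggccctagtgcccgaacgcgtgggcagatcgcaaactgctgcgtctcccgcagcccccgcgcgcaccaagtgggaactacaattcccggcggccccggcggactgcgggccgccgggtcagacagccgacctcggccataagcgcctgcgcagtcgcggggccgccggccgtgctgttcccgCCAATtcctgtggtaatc
MCM6 (ENSG00000076003, chr2:135876444-135876693, minus strand) held the most E2F words of any member, 4 in overlapping pairs:
MCM6: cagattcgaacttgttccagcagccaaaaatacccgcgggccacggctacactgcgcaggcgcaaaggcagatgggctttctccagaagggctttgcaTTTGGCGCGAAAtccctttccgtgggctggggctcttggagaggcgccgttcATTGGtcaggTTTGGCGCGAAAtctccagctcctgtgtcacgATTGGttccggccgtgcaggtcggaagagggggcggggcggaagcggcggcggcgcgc
CLSPN and BRIP1 each held 3 CCAAT words and no E2F word, whereas the E2F word of DTL lay next to the start. A match describes letters only, and a window without one says nothing of the factor. The deposited coordinates of BRIP1, DTL, POLA1 and PRIM1 reach into the windows printed here.

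Among the 10 licensing genes, all 10 fell in DKO-labelled cells (8.22% of all tested genes). In SCR cells 4 rose (26.0% of all tested genes): ORC1, ORC6, CDC6 and MCM4. ORC1 encodes the largest subunit of the origin recognition complex. After MPS1i, ORC1 had 24.3 and 28.1 CPM in STING-labelled, 31.1 and 33.6 in MAVS-labelled, 23.6 and 24.2 in DKO-labelled and 40.9 and 39.2 in SCR cells. Under DMSO, ORC1 had 25.8 and 25.4 CPM in STING-labelled, 26.5 and 30.8 in MAVS-labelled, 33.6 and 31.3 in DKO-labelled and 29.3 and 27.6 in SCR cells. The MPS1i libraries were below the DMSO libraries in DKO-labelled cells and above them in MAVS-labelled and SCR cells, and they overlapped in STING-labelled cells. For ORC1 the log2 fold change was 0.03 ± 0.08 (adjusted p = 0.8) in STING-labelled, 0.18 ± 0.08 (adjusted p = 0.087) in MAVS-labelled, -0.44 ± 0.08 (adjusted p = 0.00043) in DKO-labelled and 0.49 ± 0.08 (adjusted p = 5.8e-06) in SCR cells. CDC6 encodes the ATPase that brings MCM2-7 to the origin complex. After MPS1i, CDC6 had 60.2 and 61.6 CPM in STING-labelled, 79.4 and 72.7 in MAVS-labelled, 63.7 and 63.5 in DKO-labelled and 89.0 and 94.1 in SCR cells. Under DMSO, CDC6 had 67.0 and 69.5 CPM in STING-labelled, 70.7 and 71.1 in MAVS-labelled, 72.0 and 77.6 in DKO-labelled and 71.6 and 76.6 in SCR cells. SCR libraries were the highest after MPS1i, and no other group overlapped them. For CDC6 the log2 fold change was -0.16 ± 0.06 (adjusted p = 0.04) in STING-labelled, 0.10 ± 0.06 (adjusted p = 0.19) in MAVS-labelled, -0.23 ± 0.06 (adjusted p = 0.0061) in DKO-labelled and 0.31 ± 0.06 (adjusted p = 4.6e-05) in SCR cells.

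The helicase subunits MCM2 to MCM7 moved together in DKO-labelled cells, where their log2 fold changes ran from -0.54 to -0.27 and all 6 passed the test. In SCR cells they ran from 0.04 to 0.16, and MCM4 was the 1 subunit called. MCM4 had the highest level of the members in CPM. After MPS1i, MCM4 had 221 and 231 CPM in STING-labelled, 249.7 and 245 in MAVS-labelled, 227 and 228 in DKO-labelled and 258 and 263 in SCR cells. Under DMSO, MCM4 had 242 and 233 CPM in STING-labelled, 244 and 242 in MAVS-labelled, 322 and 326 in DKO-labelled and 231 and 235 in SCR cells. Both DKO-labelled DMSO libraries were above all other libraries, and the DKO-labelled libraries after MPS1i lay within the range of the STING-labelled ones. For MCM4 the log2 fold change was -0.07 ± 0.04 (adjusted p = 0.23) in STING-labelled, 0.02 ± 0.04 (adjusted p = 0.71) in MAVS-labelled, -0.51 ± 0.04 (adjusted p = 2.4e-09) in DKO-labelled and 0.16 ± 0.04 (adjusted p = 0.0022) in SCR cells. MCM3, another ring subunit, showed the same high DMSO level in DKO-labelled cells. After MPS1i, MCM3 had 95.0 and 98.3 CPM in STING-labelled, 110.2 and 114 in MAVS-labelled, 100.2 and 96.0 in DKO-labelled and 116 and 124 in SCR cells. Under DMSO, MCM3 had 104 and 109 CPM in STING-labelled, 116 and 126 in MAVS-labelled, 136 and 149 in DKO-labelled and 114 and 112 in SCR cells. For MCM3 the log2 fold change was -0.14 ± 0.06 (adjusted p = 0.065) in STING-labelled, -0.11 ± 0.06 (adjusted p = 0.13) in MAVS-labelled, -0.54 ± 0.06 (adjusted p = 9.1e-08) in DKO-labelled and 0.09 ± 0.05 (adjusted p = 0.16) in SCR cells.

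MCM5 and MCM6, also ring subunits, were called higher in DKO-labelled than SCR cells under DMSO. After MPS1i, MCM5 had 45.7 and 50.9 CPM in STING-labelled, 50.7 and 57.2 in MAVS-labelled, 48.5 and 49.3 in DKO-labelled and 54.3 and 53.6 in SCR cells. Under DMSO, MCM5 had 55.2 and 53.8 CPM in STING-labelled, 60.6 and 61.8 in MAVS-labelled, 73.0 and 64.6 in DKO-labelled and 53.0 and 50.1 in SCR cells. The DKO-labelled DMSO libraries were the highest, and after MPS1i the SCR libraries lay within the MAVS-labelled range and above the other two labels. For MCM5 the log2 fold change was -0.17 ± 0.07 (adjusted p = 0.069) in STING-labelled, -0.18 ± 0.07 (adjusted p = 0.043) in MAVS-labelled, -0.49 ± 0.07 (adjusted p = 1.1e-05) in DKO-labelled and 0.06 ± 0.07 (adjusted p = 0.45) in SCR cells. After MPS1i, MCM6 had 76.2 and 71.4 CPM in STING-labelled, 80.4 and 82.0 in MAVS-labelled, 82.4 and 81.3 in DKO-labelled and 77.5 and 77.7 in SCR cells. Under DMSO, MCM6 had 78.9 and 78.7 CPM in STING-labelled, 76.0 and 76.6 in MAVS-labelled, 95.7 and 102 in DKO-labelled and 74.1 and 71.9 in SCR cells. MPS1i libraries lay below DMSO libraries in DKO- and STING-labelled cells and above them in the other two. For MCM6 the log2 fold change was -0.10 ± 0.05 (adjusted p = 0.18) in STING-labelled, 0.09 ± 0.05 (adjusted p = 0.2) in MAVS-labelled, -0.27 ± 0.05 (adjusted p = 0.00042) in DKO-labelled and 0.09 ± 0.05 (adjusted p = 0.15) in SCR cells. Of the other licensing genes, CDT1 and the remaining MCM subunits MCM2 and MCM7 fell in DKO-labelled cells, with log2 fold changes of -0.57, -0.33 and -0.29. CDT1, which loads the helicase with CDC6, stood at -0.27 for STING-labelled, -0.33 for MAVS-labelled and -0.27 for SCR cells, none of which passed the test, and its treatment effect in DKO-labelled minus SCR cells was -0.30 ± 0.20 (adjusted p = 0.3).

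All 8 helicase activation genes fell in DKO-labelled cells (8.22% of all tested genes). In SCR cells they split into 4 that rose and 4 that fell (26.0% and 24.0% of all tested genes). MCM10, which helps the helicase start and binds polymerase alpha, rose in SCR cells. After MPS1i, MCM10 had 37.9 and 36.9 CPM in STING-labelled, 46.3 and 46.7 in MAVS-labelled, 37.0 and 39.8 in DKO-labelled and 48.8 and 49.6 in SCR cells. Under DMSO, MCM10 had 34.4 and 39.1 CPM in STING-labelled, 39.4 and 41.8 in MAVS-labelled, 47.2 and 51.8 in DKO-labelled and 41.7 and 39.3 in SCR cells. Libraries after MPS1i were above DMSO libraries in SCR and MAVS-labelled cells and below them in DKO-labelled cells. For MCM10 the log2 fold change was 0.03 ± 0.07 (adjusted p = 0.81) in STING-labelled, 0.20 ± 0.07 (adjusted p = 0.027) in MAVS-labelled, -0.37 ± 0.07 (adjusted p = 0.0004) in DKO-labelled and 0.28 ± 0.07 (adjusted p = 0.00094) in SCR cells. In MAVS-labelled cells the call was lost by DESeq2 and without any 1 of that line's 4 libraries, with log2 fold changes down to 0.13, and its adjusted p ran from 0.006 to 0.31 over all alternatives. The 4 GINS subunits, which form 1 complex of the active helicase, did not move alike. GINS1, GINS2 and GINS3 rose in SCR cells, with log2 fold changes of 0.38 ± 0.07, 0.30 ± 0.12 and 0.34 ± 0.11 (adjusted p = 0.0001, 0.045 and 0.013).

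GINS4 fell in cells of every label. After MPS1i, GINS4 had 10.2 and 10.3 CPM in STING-labelled, 8.58 and 8.61 in MAVS-labelled, 12.5 and 11.2 in DKO-labelled and 8.66 and 8.36 in SCR cells. Under DMSO, GINS4 had 13.0 and 13.7 CPM in STING-labelled, 12.3 and 11.9 in MAVS-labelled, 15.6 and 15.6 in DKO-labelled and 12.1 and 12.4 in SCR cells. The MPS1i libraries were below the DMSO libraries under every label, and DKO-labelled libraries were the highest in each treatment. For GINS4 the log2 fold change was -0.38 ± 0.10 (adjusted p = 0.004) in STING-labelled, -0.50 ± 0.10 (adjusted p = 0.0002) in MAVS-labelled, -0.39 ± 0.09 (adjusted p = 0.0038) in DKO-labelled and -0.53 ± 0.09 (adjusted p = 2e-05) in SCR cells. CDC7 and DBF4 encode the kinase and the activating subunit of the kinase that triggers the helicase. DBF4 fell under every label, with log2 fold changes from -0.52 in SCR to -0.34 in MAVS-labelled cells. CDC7 fell in MAVS-labelled, DKO-labelled and SCR cells, at -0.24 ± 0.07, -0.33 ± 0.07 and -0.22 ± 0.07, and CDC45, a core part of the active helicase, fell in STING-labelled, DKO-labelled and SCR cells, at -0.59 ± 0.12, -0.55 ± 0.11 and -0.27 ± 0.10.

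Of 8 polymerase and primase genes, 6 fell in DKO-labelled cells (8.22% of all tested genes). In SCR cells 3 rose and 2 fell (26.0% and 24.0% of all tested genes). PRIM1, the catalytic subunit of primase that makes the RNA primers, had the largest fall of any member in STING-labelled and in SCR cells. After MPS1i, PRIM1 had 11.8 and 11.3 CPM in STING-labelled, 14.5 and 14.1 in MAVS-labelled, 12.4 and 11.4 in DKO-labelled and 13.2 and 13.9 in SCR cells. Under DMSO, PRIM1 had 20 and 20.2 CPM in STING-labelled, 22.5 and 19.6 in MAVS-labelled, 18.5 and 21.4 in DKO-labelled and 21.5 and 24.6 in SCR cells. No MPS1i library overlapped a DMSO library of any label, and the groups after MPS1i were lower throughout. For PRIM1 the log2 fold change was -0.80 ± 0.10 (adjusted p = 8.3e-07) in STING-labelled, -0.57 ± 0.09 (adjusted p = 3.2e-05) in MAVS-labelled, -0.74 ± 0.10 (adjusted p = 4.3e-06) in DKO-labelled and -0.76 ± 0.09 (adjusted p = 9.5e-08) in SCR cells. POLA1 is the catalytic subunit of polymerase alpha, which extends those primers. After MPS1i, POLA1 had 53.6 and 52.7 CPM in STING-labelled, 56.1 and 55.5 in MAVS-labelled, 53.0 and 53.1 in DKO-labelled and 54.5 and 55.8 in SCR cells. Under DMSO, POLA1 had 68.5 and 71.8 CPM in STING-labelled, 74.3 and 71.7 in MAVS-labelled, 67.6 and 74.0 in DKO-labelled and 75.2 and 76.7 in SCR cells. Its fall was nearly the same under every label. For POLA1 the log2 fold change was -0.40 ± 0.06 (adjusted p = 5.4e-06) in STING-labelled, -0.39 ± 0.06 (adjusted p = 3.6e-06) in MAVS-labelled, -0.42 ± 0.06 (adjusted p = 5.2e-06) in DKO-labelled and -0.46 ± 0.05 (adjusted p = 6.9e-08) in SCR cells. The difference in treatment effect between DKO-labelled and SCR cells was 0.04 ± 0.08 for POLA1 and 0.01 ± 0.13 for PRIM1, and neither passed the test (adjusted p = 0.75 and 0.96).

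The other subunits of polymerase alpha-primase did not follow PRIM1 and POLA1 in SCR cells. POLA2, the regulatory subunit, had log2 fold changes of -0.59 ± 0.16 (adjusted p = 0.0049) in MAVS-labelled, -0.75 ± 0.15 (adjusted p = 0.0011) in DKO-labelled and 0.01 ± 0.15 (adjusted p = 0.96) in SCR cells. PRIM2, the large primase subunit, fell in STING- and DKO-labelled cells, at -0.24 ± 0.08 and -0.33 ± 0.08, and stood at 0.15 ± 0.08 (adjusted p = 0.093) in SCR cells. Subunits of the polymerases that copy the leading and lagging strands rose in SCR cells: POLD1, the catalytic subunit of polymerase delta, by 0.31 ± 0.09, its accessory subunit POLD3 by 0.19 ± 0.08, and POLE2 of polymerase epsilon by 0.35 ± 0.11. POLE, the catalytic subunit of epsilon, was not called in SCR cells (0.03) and fell in DKO-labelled cells (-0.44 ± 0.07). PRIM1 shares coordinates on its strand with NACA, which has a much higher level, and POLA2 lies with an overlapping gene of like level on its strand, so their counts are uncertain.

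In the clamp and its loader, 4 of 5 genes fell in DKO-labelled cells (8.22% of all tested genes). In SCR cells 1 rose and 2 fell (26.0% and 24.0% of all tested genes). PCNA, the sliding clamp that holds polymerases on DNA, rose in SCR and fell in DKO-labelled cells. After MPS1i, PCNA had 137 and 125.2 CPM in STING-labelled, 152 and 138 in MAVS-labelled, 131 and 122 in DKO-labelled and 163 and 169.9 in SCR cells. Under DMSO, PCNA had 141 and 142 CPM in STING-labelled, 139 and 136 in MAVS-labelled, 146 and 147 in DKO-labelled and 145 and 149 in SCR cells. SCR libraries after MPS1i were above all others, and MAVS-labelled libraries overlapped between treatments. For PCNA the log2 fold change was -0.11 ± 0.05 (adjusted p = 0.14) in STING-labelled, 0.08 ± 0.05 (adjusted p = 0.27) in MAVS-labelled, -0.21 ± 0.05 (adjusted p = 0.0074) in DKO-labelled and 0.18 ± 0.05 (adjusted p = 0.0054) in SCR cells. The rise in SCR was 0.14 without DMSO replicate 1 and 0.14 without MPS1i replicate 2, and the fall in DKO-labelled cells was -0.17 without its MPS1i replicate 2, and none of these passed the test. Over all alternatives the adjusted p ran from 0.0017 to 0.077 in SCR and from 0.0013 to 0.11 in DKO-labelled cells. PCNA in STING-labelled cells was called lower without MPS1i replicate 1, at -0.18. The clamp loader subunits RFC3 and RFC5 fell under every label, where RFC5 had log2 fold changes of -0.60 in DKO-labelled and -0.25 in SCR cells. RFC4 fell in STING- and DKO-labelled cells, at -0.35 ± 0.09 and -0.43 ± 0.09.

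The 3 subunits of RPA, which coats single-stranded DNA, differed in their calls. RPA1, the large subunit that binds DNA, fell in MAVS-labelled, DKO-labelled and SCR cells. After MPS1i, RPA1 had 71.2 and 76.0 CPM in STING-labelled, 67.3 and 66.5 in MAVS-labelled, 77.6 and 81.5 in DKO-labelled and 61.8 and 59.4 in SCR cells. Under DMSO, RPA1 had 78.9 and 77.3 CPM in STING-labelled, 79.0 and 78.6 in MAVS-labelled, 91.2 and 88.5 in DKO-labelled and 80.2 and 75.5 in SCR cells. MPS1i libraries were below DMSO libraries under every label, and the SCR libraries after MPS1i were the lowest of all. For RPA1 the log2 fold change was -0.09 ± 0.05 (adjusted p = 0.25) in STING-labelled, -0.24 ± 0.05 (adjusted p = 0.0011) in MAVS-labelled, -0.18 ± 0.05 (adjusted p = 0.024) in DKO-labelled and -0.36 ± 0.05 (adjusted p = 2.1e-06) in SCR cells. In DKO-labelled cells the call was lost without DMSO replicate 1 (-0.16), without MPS1i replicate 1 (-0.14) and in a fit of the compared groups alone (-0.18), and its adjusted p ran from 0.021 to 0.23 over the alternatives. RPA2, the subunit phosphorylated under replication stress, rose in STING-labelled and SCR cells. After MPS1i, RPA2 had 25.5 and 26.3 CPM in STING-labelled, 26.3 and 25.4 in MAVS-labelled, 26.0 and 27.2 in DKO-labelled and 28.7 and 29.2 in SCR cells. Under DMSO, RPA2 had 21.5 and 21.7 CPM in STING-labelled, 23.1 and 26.5 in MAVS-labelled, 23.2 and 27.4 in DKO-labelled and 24.7 and 24.98 in SCR cells. Treatments overlapped in MAVS- and DKO-labelled cells and were apart in the other two. For RPA2 the log2 fold change was 0.26 ± 0.08 (adjusted p = 0.022) in STING-labelled, 0.07 ± 0.08 (adjusted p = 0.59) in MAVS-labelled, 0.06 ± 0.08 (adjusted p = 0.7) in DKO-labelled and 0.22 ± 0.08 (adjusted p = 0.019) in SCR cells. The STING-labelled call was lost by DESeq2 and without any 1 of that line's libraries, where the log2 fold change ran from 0.23 to 0.28 and the adjusted p over all alternatives from 0.0083 to 0.14.

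Of the genes that finish Okazaki fragments, FEN1, the flap endonuclease, rose in SCR cells. After MPS1i, FEN1 had 34.2 and 32.9 CPM in STING-labelled, 38.8 and 40.8 in MAVS-labelled, 32.3 and 36.6 in DKO-labelled and 46.0 and 43.8 in SCR cells. Under DMSO, FEN1 had 33.2 and 32.0 CPM in STING-labelled, 35.9 and 35.8 in MAVS-labelled, 38.5 and 39.8 in DKO-labelled and 34.7 and 32.0 in SCR cells. SCR and MAVS-labelled libraries after MPS1i were above those under DMSO, and DKO-labelled ones were below. For FEN1 the log2 fold change was 0.04 ± 0.07 (adjusted p = 0.73) in STING-labelled, 0.15 ± 0.07 (adjusted p = 0.1) in MAVS-labelled, -0.19 ± 0.07 (adjusted p = 0.069) in DKO-labelled and 0.42 ± 0.07 (adjusted p = 7.6e-06) in SCR cells. FEN1 overlaps FADS2 on the same strand, whose level is 6.33 times that of FEN1, so its count is uncertain. The ligase LIG1, which seals the fragments, went the other way in SCR cells, at -0.34 ± 0.07 (adjusted p = 0.00036), and fell in MAVS- and DKO-labelled cells, at -0.26 ± 0.07 and -0.54 ± 0.07. RNASEH2A, the catalytic subunit of the enzyme that removes ribonucleotides from DNA, fell in DKO-labelled cells, at -0.62 ± 0.14 (adjusted p = 0.0035).

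The 4 genes of nucleotide supply had negative log2 fold changes under every label. RRM1, the large subunit of ribonucleotide reductase, fell in each. After MPS1i, RRM1 had 87.2 and 82.6 CPM in STING-labelled, 89.9 and 86.7 in MAVS-labelled, 94.9 and 94.4 in DKO-labelled and 85.2 and 91.5 in SCR cells. Under DMSO, RRM1 had 121 and 122 CPM in STING-labelled, 128 and 128 in MAVS-labelled, 132 and 139 in DKO-labelled and 133 and 139 in SCR cells. The highest library after MPS1i was well under the lowest under DMSO. For RRM1 the log2 fold change was -0.52 ± 0.05 (adjusted p = 1.8e-08) in STING-labelled, -0.53 ± 0.05 (adjusted p = 5.6e-09) in MAVS-labelled, -0.52 ± 0.05 (adjusted p = 4.1e-08) in DKO-labelled and -0.62 ± 0.05 (adjusted p = 8e-11) in SCR cells. RRM2, the small subunit, fell in STING- and DKO-labelled cells, at -0.38 ± 0.06 and -0.36 ± 0.06, and was not called in MAVS-labelled (-0.08) and SCR cells (-0.06). TYMS makes thymidylate. After MPS1i, TYMS had 83.5 and 81.6 CPM in STING-labelled, 94.0 and 90.9 in MAVS-labelled, 109.5 and 115 in DKO-labelled and 84.7 and 84.1 in SCR cells. Under DMSO, TYMS had 106 and 102 CPM in STING-labelled, 109 and 108 in MAVS-labelled, 142 and 145 in DKO-labelled and 106 and 108 in SCR cells. DKO-labelled libraries were the highest in each treatment, and within each label MPS1i libraries were below DMSO libraries. For TYMS the log2 fold change was -0.33 ± 0.05 (adjusted p = 8.5e-06) in STING-labelled, -0.23 ± 0.05 (adjusted p = 0.00046) in MAVS-labelled, -0.36 ± 0.05 (adjusted p = 5.1e-06) in DKO-labelled and -0.34 ± 0.05 (adjusted p = 9.2e-07) in SCR cells. TK1, which salvages thymidine, fell in MAVS- and DKO-labelled cells, at -0.36 ± 0.11 and -0.71 ± 0.11.

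**Figure D3:**
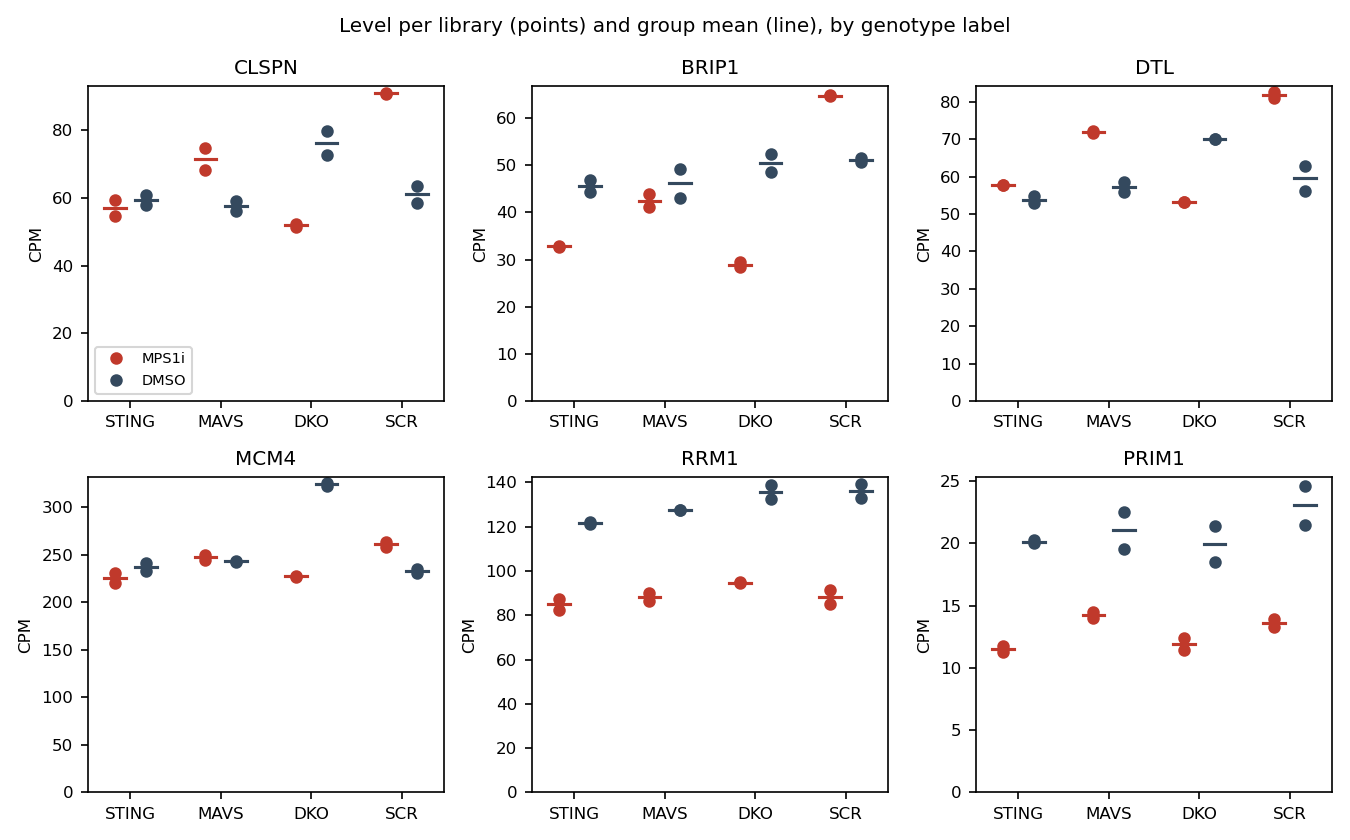
CPM in each library (points) and group mean (line) of CLSPN, BRIP1, DTL, MCM4, RRM1 and PRIM1, by genotype label, after MPS1i (red) and DMSO (dark). For CLSPN the SCR libraries after MPS1i stand at 90.8 and 91.1 CPM and the DKO-labelled ones at 52.3 and 51.4 CPM, while RRM1 is lower after MPS1i under every label.

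Of 5 fork protection and checkpoint genes, 4 fell in DKO-labelled cells (8.22% of all tested genes). In SCR cells 3 rose and 1 fell (26.0% and 24.0% of all tested genes). CLSPN encodes claspin, which passes the signal of stalled forks to the kinase CHK1. After MPS1i, CLSPN had 59.4 and 54.5 CPM in STING-labelled, 74.9 and 68.3 in MAVS-labelled, 52.3 and 51.4 in DKO-labelled and 90.8 and 91.1 in SCR cells. Under DMSO, CLSPN had 58.0 and 60.8 CPM in STING-labelled, 56.0 and 59.1 in MAVS-labelled, 72.7 and 79.9 in DKO-labelled and 58.5 and 63.5 in SCR cells. Libraries after MPS1i were above DMSO libraries in SCR and MAVS-labelled cells, below them in DKO-labelled cells and overlapping in STING-labelled cells. For CLSPN the log2 fold change was -0.06 ± 0.07 (adjusted p = 0.52) in STING-labelled, 0.32 ± 0.06 (adjusted p = 0.00035) in MAVS-labelled, -0.56 ± 0.06 (adjusted p = 5.4e-07) in DKO-labelled and 0.58 ± 0.06 (adjusted p = 1.3e-08) in SCR cells. The treatment effect of DKO-labelled cells minus that of SCR cells was -1.13 ± 0.09 (adjusted p = 1.6e-10). BRIP1 is a helicase that works with BRCA1 and in the Fanconi pathway. After MPS1i, BRIP1 had 32.8 and 32.9 CPM in STING-labelled, 43.8 and 41.2 in MAVS-labelled, 28.4 and 29.4 in DKO-labelled and 65.0 and 64.6 in SCR cells. Under DMSO, BRIP1 had 44.3 and 47.0 CPM in STING-labelled, 43.1 and 49.3 in MAVS-labelled, 48.6 and 52.5 in DKO-labelled and 50.7 and 51.6 in SCR cells. After MPS1i, SCR libraries were the highest and no label overlapped another. For BRIP1 the log2 fold change was -0.47 ± 0.07 (adjusted p = 8.8e-06) in STING-labelled, -0.12 ± 0.07 (adjusted p = 0.2) in MAVS-labelled, -0.81 ± 0.07 (adjusted p = 3.4e-09) in DKO-labelled and 0.34 ± 0.06 (adjusted p = 5.7e-05) in SCR cells. The treatment effect of BRIP1 minus that in SCR cells was -0.82 ± 0.09 (adjusted p = 4.5e-07) for STING-labelled cells, -0.46 ± 0.09 (adjusted p = 0.0015) for MAVS-labelled cells and -1.15 ± 0.09 (adjusted p = 3.2e-10) for DKO-labelled cells.

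TIMELESS and TIPIN encode partners that travel with the fork, and their RNA did not move alike. After MPS1i, TIMELESS had 97.5 and 95.7 CPM in STING-labelled, 96.7 and 102 in MAVS-labelled, 92.5 and 89.4 in DKO-labelled and 108 and 101 in SCR cells. Under DMSO, TIMELESS had 103 and 105 CPM in STING-labelled, 110.4 and 112 in MAVS-labelled, 125.3 and 128 in DKO-labelled and 111 and 102 in SCR cells. DKO-labelled libraries were the highest under DMSO and the lowest after MPS1i. For TIMELESS the log2 fold change was -0.10 ± 0.05 (adjusted p = 0.15) in STING-labelled, -0.17 ± 0.05 (adjusted p = 0.015) in MAVS-labelled, -0.47 ± 0.05 (adjusted p = 2.5e-07) in DKO-labelled and -0.03 ± 0.05 (adjusted p = 0.68) in SCR cells. The MAVS-labelled call was lost without DMSO replicate 2 (-0.17) or MPS1i replicate 1 (-0.15) of that line and when libraries were thinned (-0.13), with an adjusted p from 0.004 to 0.095 over the alternatives. After MPS1i, TIPIN had 14.6 and 17.5 CPM in STING-labelled, 18.6 and 16.2 in MAVS-labelled, 14.8 and 14.1 in DKO-labelled and 20.6 and 19.1 in SCR cells. Under DMSO, TIPIN had 15.1 and 13.0 CPM in STING-labelled, 13.3 and 14.4 in MAVS-labelled, 14.7 and 15.7 in DKO-labelled and 13.7 and 14.97 in SCR cells. SCR libraries after MPS1i were above all others. For TIPIN the log2 fold change was 0.19 ± 0.11 (adjusted p = 0.19) in STING-labelled, 0.33 ± 0.10 (adjusted p = 0.014) in MAVS-labelled, -0.07 ± 0.10 (adjusted p = 0.72) in DKO-labelled and 0.47 ± 0.09 (adjusted p = 0.00018) in SCR cells. In MAVS-labelled cells the rise of TIPIN was 0.25 without DMSO replicate 1, 0.22 without MPS1i replicate 1 and 0.27 when thinned, none of which passed the test, and its adjusted p ran from 0.0073 to 0.21 over all alternatives. CHEK1, which encodes CHK1, fell under every label, with log2 fold changes from -0.47 in DKO-labelled to -0.19 in MAVS-labelled cells.

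The 4 genes of chromatin assembly and licensing control fell in DKO-labelled cells (8.22% of all tested genes), and 3 of them rose in SCR cells (26.0% of all tested genes). DTL is the substrate receptor of the ubiquitin ligase that destroys CDT1 in S phase. After MPS1i, DTL had 57.8 and 57.7 CPM in STING-labelled, 71.8 and 72.4 in MAVS-labelled, 53.3 and 53.2 in DKO-labelled and 81.1 and 82.8 in SCR cells. Under DMSO, DTL had 54.7 and 52.9 CPM in STING-labelled, 56.0 and 58.6 in MAVS-labelled, 70.1 and 70.1 in DKO-labelled and 56.1 and 63.0 in SCR cells. Both SCR libraries after MPS1i were above every other library. For DTL the log2 fold change was 0.10 ± 0.06 (adjusted p = 0.21) in STING-labelled, 0.33 ± 0.06 (adjusted p = 4.9e-05) in MAVS-labelled, -0.40 ± 0.06 (adjusted p = 1.7e-05) in DKO-labelled and 0.46 ± 0.05 (adjusted p = 9.5e-08) in SCR cells. CHAF1B, a subunit of the histone chaperone CAF-1 that places histones behind the fork, also rose in SCR and fell in DKO-labelled cells. After MPS1i, CHAF1B had 50.9 and 48.2 CPM in STING-labelled, 53.6 and 52.0 in MAVS-labelled, 47.4 and 47.3 in DKO-labelled and 67.9 and 67.5 in SCR cells. Under DMSO, CHAF1B had 53.7 and 52.0 CPM in STING-labelled, 54.9 and 57.5 in MAVS-labelled, 65.2 and 66.2 in DKO-labelled and 54.9 and 53.0 in SCR cells. SCR libraries after MPS1i and DKO-labelled libraries under DMSO were the highest and did not overlap the rest. For CHAF1B the log2 fold change was -0.10 ± 0.06 (adjusted p = 0.22) in STING-labelled, -0.09 ± 0.06 (adjusted p = 0.24) in MAVS-labelled, -0.47 ± 0.06 (adjusted p = 7.6e-07) in DKO-labelled and 0.33 ± 0.05 (adjusted p = 1.1e-05) in SCR cells. Its partner CHAF1A rose in SCR cells, at 0.37 ± 0.07, and fell in DKO-labelled cells, at -0.32 ± 0.07. UHRF1, which brings maintenance methylation to new DNA, stood at 0.15 ± 0.07 (adjusted p = 0.067) in SCR and fell in DKO-labelled cells, at -0.33 ± 0.07. CHAF1B and CHEK1 overlap a gene of higher level on their strand (MORC3 and STT3A), and DTL overlaps INTS7 on the opposite strand by 5 bases.

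In all, 23 members overlap another tested gene in the deposited coordinates, 9 of them on the same strand. For 13 of the 23 the other gene had at least 0.25 times the member's level: DBF4, GINS2, POLA2, PRIM1, RFC4, RFC5, RPA3, FEN1, RNASEH2A, CHEK1, CHAF1A, CHAF1B and DTL. How reads in such stretches were assigned, and whether strand was used, is not given in the sources used here. Their values carry that uncertainty, least where the overlap is short. For DTL, GINS2, RFC4, CHAF1A and CHEK1 it was 5, 7, 18, 20 and 53 bases, beside exon lengths of 2997 (RFC4) to 6558 bases (CHEK1).

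Whether the effect of MPS1i differed between labels was tested directly, as the treatment effect in one line minus that in another. Against SCR cells, DKO-labelled cells had a lower treatment effect for 33 of 50 members, with a median difference of -0.47 log2 units, against 14.5% of all tested genes. No member had a higher one (0 by edgeR and by DESeq2, 1 at an unadjusted p under 0.05), against 13.5% of all genes. The 33 included 9 of 10 licensing genes, 6 of 8 polymerase genes and all 4 genes of chromatin assembly and licensing control. Among the 33, 17 were also higher in DKO-labelled than SCR cells under DMSO, 25 were lower under MPS1i, 10 were both and RFC5 was neither. Of the 2606 tested genes with a lower treatment effect, 823 were higher under DMSO, 1994 lower under MPS1i and 304 both, so the share lower under MPS1i is near that of the 33 members. The differences for ORC1, MCM10 and DTL were -0.93 ± 0.11, -0.65 ± 0.10 and -0.86 ± 0.08. RRM1, TYMS, POLA1, PRIM1 and GINS4 did not pass this test, with differences between -0.01 and 0.14. With 1 library left out, 1 member was higher without SCR DMSO replicate 2, SCR MPS1i replicate 1, MAVS-labelled DMSO replicate 1, DKO-labelled DMSO replicate 1 or DKO-labelled MPS1i replicate 1. The comparisons with SCR cells share the SCR libraries.

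**Figure D4:**
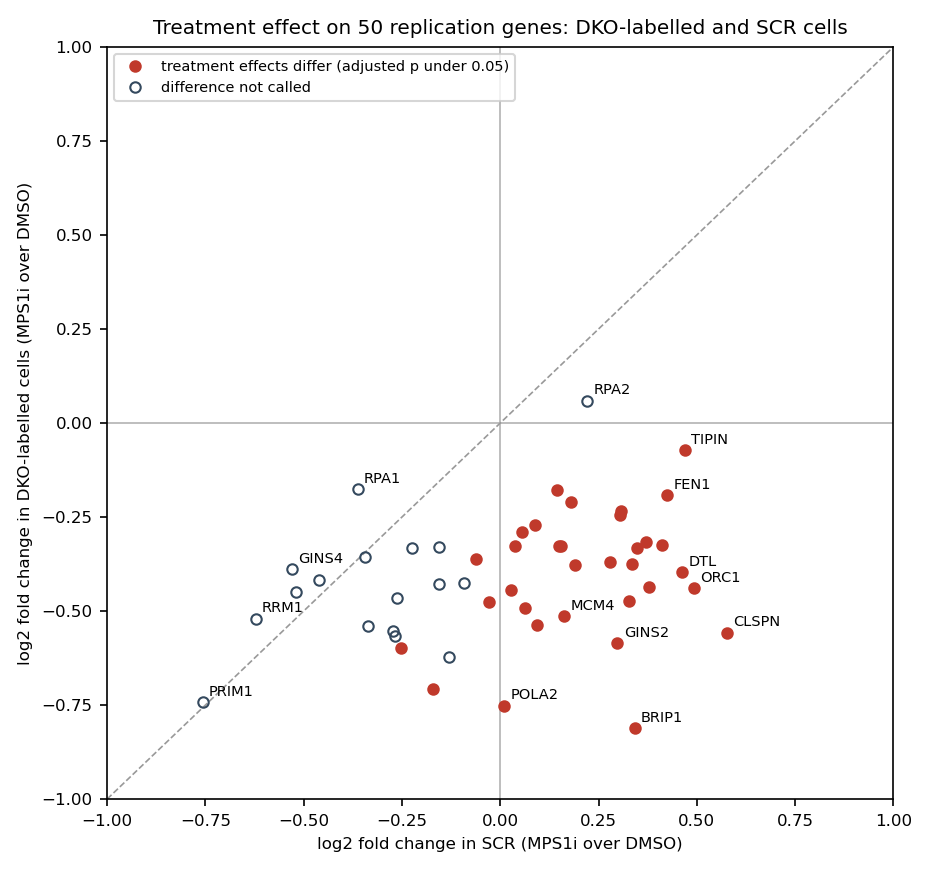
Log2 fold change after MPS1i over DMSO in DKO-labelled cells (vertical) and in SCR cells (horizontal) for the 50 genes; filled points differ between the labels at an adjusted p under 0.05, and the dashed line marks equal effects. The 33 filled points lie below the line, with CLSPN at -0.56 and 0.58, while PRIM1 lies on it.

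STING-labelled cells had a lower treatment effect than SCR cells for 17 members and a higher one for 1 (RPA1, 0.28 ± 0.08), against 9.55% and 9.97% of all tested genes, with a median difference of -0.22. The RPA1 call was lost without SCR MPS1i replicate 2, STING-labelled DMSO replicate 2 or STING-labelled MPS1i replicate 2. CLSPN, BRIP1 and CDC6 had the smallest adjusted p, at -0.64 ± 0.09, -0.82 ± 0.09 and -0.47 ± 0.08. MAVS-labelled cells had a lower treatment effect for BRIP1 and CHAF1B (-0.42 ± 0.08), 2 of 50, against 4.52% of all genes, and 4 members were called in a fit of the compared groups alone or without DKO-labelled DMSO replicate 2. No member was higher by edgeR, by DESeq2 or at an unadjusted p under 0.05 (0 of 50), against 2.92% of all genes. DKO-labelled cells also differed from the lines with 1 guide. Relative to MAVS-labelled cells their treatment effect was lower for 22 members (6.41% of all genes), and relative to STING-labelled cells for 12 (3.17%). No member was higher in either comparison by edgeR, DESeq2 or an unadjusted p under 0.05 (0 of 50 in each), against 4.97% and 1.55% of all genes. The count against STING-labelled cells was 7 without STING-labelled DMSO replicate 1, DMSO replicate 2 or MPS1i replicate 2, and 6 without DKO-labelled MPS1i replicate 1. ORC1, MCM3, MCM4, MCM10, CLSPN, TIMELESS, BRIP1, CHAF1A, CHAF1B, UHRF1 and DTL had a lower treatment effect in DKO-labelled cells than in each of the other lines, 11 of 50 members and 2.6% of all tested genes.

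Few members were called under DMSO between the lines with 1 guide and SCR cells. STING-labelled cells had 1 member called, RRM1, which was lower at -0.16 ± 0.05 (adjusted p = 0.041), against 5.47% of all tested genes lower and 4.7% higher. In that comparison 40 of the 50 log2 fold changes were negative, with a median of -0.06, and 9 members were lower at an unadjusted p under 0.05. None was called higher by edgeR or DESeq2 (1 at an unadjusted p under 0.05). That call did not hold in every alternative: RRM1 ran from -0.20 to -0.14 with 1 library left out and its adjusted p from 0.0072 to 0.22 over all alternatives, and the count of calls ran from 0 to 5 over the left-out libraries, with 5 without DKO-labelled DMSO replicate 1. The RRM1 call was lost without SCR DMSO or MPS1i replicate 2, any 1 of the STING-labelled libraries, either MAVS-labelled DMSO library or DKO-labelled MPS1i replicate 2, and also with total counts as the scaling (-0.12) or thinned libraries (-0.16). MAVS-labelled cells had MCM5 higher, at 0.25 ± 0.07 (adjusted p = 0.028), against 3.98% of all genes higher and 2.57% lower. No member was lower by edgeR or DESeq2 (1 at an unadjusted p under 0.05). The MCM5 call was lost without any 1 of the MAVS-labelled or SCR DMSO libraries and when thinned, where the log2 fold change ran from 0.20 to 0.29, and its adjusted p ran from 0.01 to 0.26 over the alternatives. DKO-labelled cells had 22 members higher under DMSO, with a median of 0.18, against 15.8% of all genes higher and 15.3% lower. No member was lower there by edgeR or DESeq2 (1 at an unadjusted p under 0.05). With 1 library left out, 3 were lower without DKO-labelled DMSO replicate 2 and 1 without SCR DMSO replicate 1. MCM4, TYMS and MCM6 had the smallest adjusted p, at 0.48 ± 0.04, 0.42 ± 0.05 and 0.44 ± 0.05, and 5 of the 6 MCM2-7 subunits were called. GINS2 and POLA2 had the largest differences, at 0.63 ± 0.12 and 0.61 ± 0.14.

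After MPS1i the order of the lines was another. Against SCR cells, 28 members were lower and 3 higher in DKO-labelled cells, where 22.4% of all tested genes were lower and 22.6% higher. STING-labelled cells had 30 lower and 2 higher, against 17.3% and 15.8%, and 1 was higher without any 1 of the STING-labelled or SCR MPS1i libraries. MAVS-labelled cells had 11 lower, against 8.47%, and none higher by edgeR or DESeq2 (3 at an unadjusted p under 0.05), against 7.46%. The MAVS count was 6 without SCR MPS1i replicate 2, MAVS-labelled MPS1i replicate 1 or MAVS-labelled MPS1i replicate 2, and 2 members were higher without either DKO-labelled DMSO library. The 11 members lower in each of the 3 lines were ORC1, ORC6, CDC6, GINS1, POLE2, PCNA, CLSPN, BRIP1, CHAF1A, CHAF1B and DTL. They are 22.0% of the members, against 7.63% of all tested genes, and the 3 comparisons share the SCR libraries. BRIP1 was the farthest from SCR, at -0.98 ± 0.07 for STING-labelled cells, -0.61 ± 0.06 for MAVS-labelled cells and -1.17 ± 0.07 for DKO-labelled cells. GINS4, RPA1 and TYMS were higher than SCR in DKO-labelled cells, at 0.48 ± 0.09, 0.39 ± 0.05 and 0.41 ± 0.05, and GINS4 and RPA1 in STING-labelled cells, at 0.27 ± 0.09 and 0.28 ± 0.05. Members both higher than SCR under DMSO and lower after MPS1i in DKO-labelled cells were MCM3, MCM4, MCM10, FEN1, CLSPN, TIMELESS, CHAF1A, CHAF1B, UHRF1 and DTL, which are 10 of 50 members, against 1.69% of all tested genes.

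**Figure D5:**
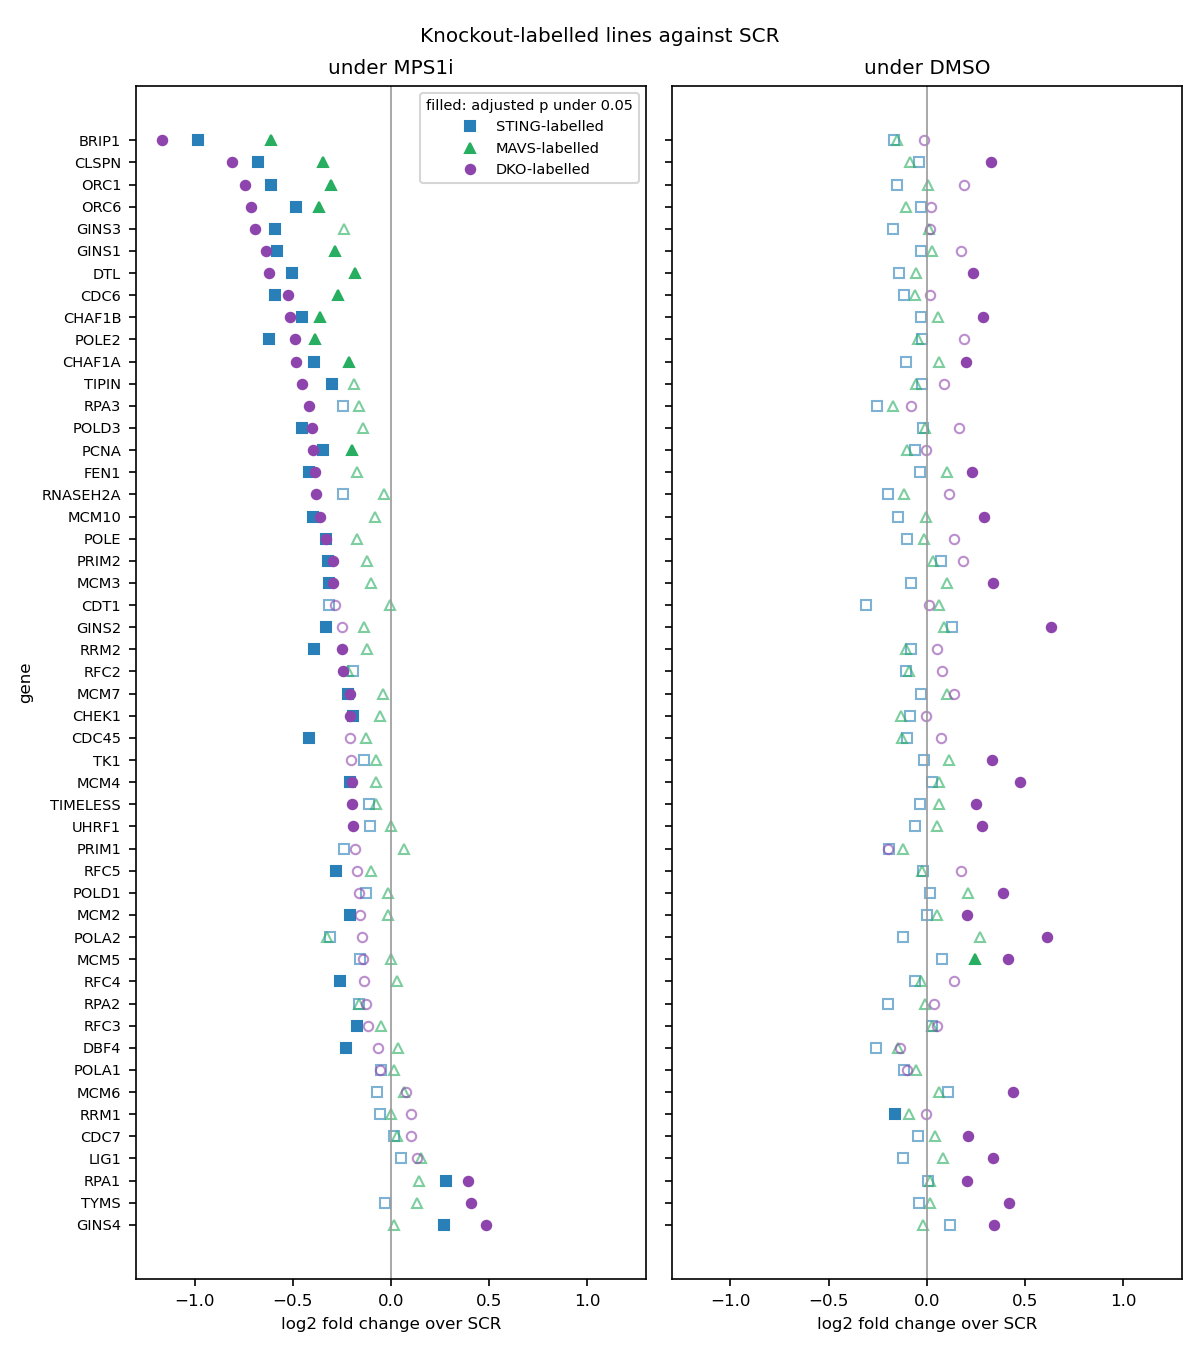
Log2 fold change of each gene in STING-labelled (squares), MAVS-labelled (triangles) and DKO-labelled (circles) cells over SCR cells, after MPS1i (left) and under DMSO (right); filled symbols have an adjusted p under 0.05. BRIP1 stands lowest after MPS1i, at -1.17 in DKO-labelled cells, and 22 circles are filled on the right of 0 under DMSO.

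Genes of other cell cycle phases were set beside the members. All 25 genes of a G2 and mitosis list fell under every label, against 4.51% of all tested genes. Their median log2 fold change was -0.81 in STING-labelled, -0.88 in MAVS-labelled, -0.85 in DKO-labelled and -1.11 in SCR cells. TOP2A, a topoisomerase of dividing cells, was at -1.11 ± 0.05 in STING-labelled, -1.19 ± 0.05 in MAVS-labelled, -0.99 ± 0.05 in DKO-labelled and -1.64 ± 0.05 in SCR cells, and MKI67, KIF20A and CCNB1 fell likewise under every label. The share of that fall in the members' values was not tested. The treatment effect on this list was higher in DKO-labelled than in SCR cells for 12 of 25 genes and lower for 1, against 0 and 33 of the 50 members. Of all tested genes, 13.5% had a higher and 14.5% a lower treatment effect there. Of 20 E2F and S phase entry regulators, 2 rose and 11 fell in DKO-labelled cells (6.53% and 8.22% of all tested genes). In SCR cells 7 rose and 8 fell (26.0% and 24.0% of all tested genes). Cyclin E2 (CCNE2), which starts S phase, rose by 1.18 ± 0.11 in SCR cells and stood at 0.07 ± 0.11 (adjusted p = 0.75) in DKO-labelled cells, while cyclin A2 (CCNA2) fell under every label, at -0.88 ± 0.06 in DKO-labelled and -1.08 ± 0.06 in SCR cells.

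Other pathway genes behaved in mixed ways. Of all tested genes, 6.53% rose and 8.22% fell in DKO-labelled cells, and 26.0% rose and 24.0% fell in SCR cells. Of 33 further replisome and licensing genes, 20 fell in DKO-labelled cells, and 5 rose and 13 fell in SCR cells. The chromatin remodeller HELLS fell, at -0.76 ± 0.08 for STING-labelled, -0.54 ± 0.08 for MAVS-labelled, -0.51 ± 0.08 for DKO-labelled and -0.69 ± 0.08 for SCR cells, and TICRR, which helps fire origins, fell under every label, at -0.67 ± 0.08 in DKO-labelled and -0.25 ± 0.07 in SCR cells. ORC4, an origin recognition subunit, rose in STING-labelled, MAVS-labelled and SCR cells, at 0.21, 0.19 and 0.36, and stood at 0.07 ± 0.06 (adjusted p = 0.56) in DKO-labelled cells. Of 10 further nucleotide supply genes, 1 rose and 3 fell in DKO-labelled cells, and 1 rose and 4 fell in SCR cells. DCK, which salvages deoxycytidine, was at -0.24 ± 0.08 for STING-labelled, -0.26 ± 0.08 for MAVS-labelled and -0.45 ± 0.07 for DKO-labelled cells, where it fell, and -0.17 ± 0.07 (adjusted p = 0.05) for SCR cells. IMPDH2, which makes guanine nucleotides, fell at -0.36 ± 0.06 for STING-labelled, -0.53 ± 0.05 for MAVS-labelled and -0.75 ± 0.05 for SCR cells, and stood at -0.09 ± 0.05 (adjusted p = 0.32) for DKO-labelled cells. Of 22 further checkpoint and repair genes, 11 fell in DKO-labelled cells, and 7 rose and 9 fell in SCR cells. BRCA1 and FANCD2 of the repair of forks fell under every label, BRCA1 at -0.77 ± 0.05 in DKO-labelled and -0.77 ± 0.05 in SCR cells, whereas the checkpoint kinase CHEK2 rose in SCR cells, at 0.82 ± 0.08, and fell in DKO-labelled cells, at -0.36 ± 0.10.

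All 4 listed interferon-responsive genes that act on replication or DNA rose in STING-labelled, MAVS-labelled and SCR cells, and none rose in DKO-labelled cells by edgeR's test. The shares of all tested genes that rose were 15.5%, 17.1%, 26.0% and 6.53% in that order. SAMHD1, which degrades nucleotides, rose in 3 of the 4 lines, at 2.69 ± 0.07 for STING-labelled, 1.87 ± 0.06 for MAVS-labelled and 2.75 ± 0.06 for SCR cells, and stood at -0.21 ± 0.08 (adjusted p = 0.082) in DKO-labelled cells. SLFN11, which blocks stressed forks, fell in DKO-labelled cells, at -0.23 ± 0.06, and rose in SCR cells, at 1.11 ± 0.06. TREX1, a nuclease of cytosolic DNA, and ISG15, a ubiquitin-like modifier, rose in STING-labelled, MAVS-labelled and SCR cells, and in DKO-labelled cells they stood at -0.08 ± 0.25 (adjusted p = 0.89) and 0.83 ± 0.24 (adjusted p = 0.052). The largest rise of a member in SCR cells was that of CLSPN, at 0.58 ± 0.06, and whether the interferon response has a part in their values was not tested.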

How the data were processed

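RNA from 16 NCI-H1944 libraries was sequenced after poly(A) selection with a stranded kit, per the labels' protocols. The values are raw counts per gene that the authors deposited. Trim Galore, Trimmomatic, cutadapt, STAR and featureCounts, and the build GRCh38/hg38, are named in the submitters' processing notes. Versions, strand setting and the handling of reads with several positions are not given in the sources used here.

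From these counts, edgeR 4.0.16 in R 4.3.3 (filterByExpr with a minimum count of 10, TMM, robust quasi-likelihood fit with 1 mean per group and 8 residual degrees of freedom) tested 17950 genes in 16 contrasts. A call is an adjusted p under 0.05 (Benjamini-Hochberg over all tested genes within a contrast). Errors beside log2 fold changes are approximate standard errors. They were derived from the test, as the absolute log2 fold change over the square root of the quasi-likelihood F. CPM were computed with TMM library sizes. Levels per kilobase used exon lengths from GENCODE, matched by gene ID, because the deposited length is the gene's span. Precision depends on total counts and on the spread between replicates, whose chi-square per gene ran from 2.8 to 9.43 over the groups. All members were well above the filter. The fit was also run on simulated data as a check of the code, and its power for changes as small as those of the members is not given here.

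The genes and lists were chosen with earlier results of these data known. Genes given library by library were the 4 called members with the smallest adjusted p in each direction of each treatment effect, the top 3 of each other contrast, and the member of highest CPM in each role. Genes of other lists were named where they were among the top 3 of their list in a treatment effect, and others named with values were chosen after their values were seen. Same-numbered replicates were not treated as pairs, since only 3 of 28 pairs of groups had a correlation of deviations over 0.1. Alternatives were DESeq2 1.42.0, other scalings and filters, thinning to equal depth, the compared groups alone, a replicate block and leaving out each library.

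Results on some genes of the other lists are not reported here.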

Additional observations from a re-analysis of the deposited data

Results flagged for a closer look

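The results here are differences between labels in the effect of MPS1i over DMSO, each tested as an interaction in edgeR's quasi-likelihood fit, and they are given as values only. DKO-labelled cells differed from SCR cells for 33 of 50 members (all lower, against 14.5% of all tested genes lower). Those with the smallest adjusted p were CLSPN (-1.13 on the log2 scale), BRIP1 (-1.15) and MCM4 (-0.68), and other members differed by more than MCM4. STING-labelled cells differed from SCR cells for 18 members (17 lower and 1 higher, against 9.55% and 9.97% of all genes), with BRIP1 (-0.82), CLSPN (-0.64) and CDC6 (-0.47) first by adjusted p. MAVS-labelled cells differed from SCR cells for 2 members, BRIP1 (-0.46) and CHAF1B (-0.42), where 4.52% of all genes were lower, so this count is near the background. DKO-labelled cells differed from MAVS-labelled cells for 22 members (all lower, against 6.41% of all genes lower), with CLSPN (-0.87), DTL (-0.73) and MCM4 (-0.54) first by adjusted p. DKO-labelled cells differed from STING-labelled cells for 12 members (all lower, against 3.17% of all genes lower), with CLSPN (-0.50), DTL (-0.50) and MCM4 (-0.44) first by adjusted p.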

How the results depend on the processing

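Over 24 alternatives, 1521 of 1560 values of named genes kept their direction and side of the threshold, 38 lost the call, 1 gained it and 0 reversed. The named genes were mostly chosen for the smallest adjusted p, so their values were the likeliest to hold. Of the 24 alternatives, 16 left out 1 library, often one outside the compared groups. This agreement therefore does not speak for the other members. Counts of called members moved by more than 1.5 times in the comparisons that follow, and the cause was not tested. STING-labelled against SCR cells under DMSO had 1 call, against 3 with no filter on low counts, 2 with the compared groups alone, 0 when thinned to equal depth and 0 to 5 with 1 library left out. MAVS-labelled against SCR cells under DMSO had 1 call, against 0 when thinned and 0 to 1 with 1 library left out. The difference in treatment effect between MAVS-labelled and SCR cells had 2 calls, against 4 with the compared groups alone and 2 to 4 with 1 library left out. With 1 library left out, the treatment effect in MAVS-labelled cells had 12 to 23 calls, MAVS-labelled against SCR cells after MPS1i had 6 to 15, and the difference in treatment effect between DKO- and STING-labelled cells had 6 to 12. A replicate block, which the data do not show to pair the samples (correlations from -0.0845 to 0.138, median 0.0203), gave 19 calls for STING-labelled, 21 for MAVS-labelled, 43 for DKO-labelled and 33 for SCR cells, and 33 for the difference between DKO-labelled and SCR cells. Each group has 2 libraries, which limits small differences, and overlapping genes and the unstated strand setting limit single values.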
